A study of Mus musculus with 8 samples.

Results

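The 10 genes described here encode the Notch receptors Notch1, Notch2, Notch3 and Notch4, the ligands Jag1, Jag2, Dll1 and Dll4, and the target genes Hes1 and Hey1. They were taken as a named set, matched by symbol in GENCODE M21 (GRCm38, the assembly of mm10) to the Ensembl gene IDs of a count table, and all 10 were found among its 50143 genes. Reads were counted in 8 tumours that formed in mammary gland 4 of ovariectomized female C57BL/6 mice after injection of Py230, a line of mouse breast adenocarcinoma cells. The ovaries were removed at 6 weeks of age and the diets began 2 weeks later, 6 weeks ahead of the tumour cell injection. The 4 tumours called obese came from mice on a diet with 60% of its calories as fat (5.1 kcal/g), on which body weight rose by 35% on average, and the 4 called lean from mice on a diet with 10% (3.6 kcal/g). All tumours were resected on day 56. No group kept its ovaries, 1 cell line was used throughout, and RNA of tumour and host cells was measured together. The labels do not say whether each tumour came from its own mouse, so the tests below measure the spread between these tumours.

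Notch receptors are membrane proteins that are switched on by contact with a ligand on a neighbouring cell. Ligand binding exposes the receptor to an ADAM protease and then to gamma-secretase, and the freed intracellular part enters the nucleus, where it joins the DNA-binding protein RBPJ and a Mastermind co-activator at target genes such as those of the HES and HEY families. In the mammary gland the pathway is known for its part in luminal cell fate, and outside the epithelium Notch4 and Dll4 are known from blood vessel endothelium and Notch3 from the mural cells around vessels.

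Tumours of obese mice held more mRNA of 1 receptor, Notch2, and less of the receptors Notch1 and Notch3, of the ligands Jag2 and Dll1 and of the target gene Hes1. Notch2 was 3.61-fold higher on the group means, while Notch3 was 13.9-fold and Jag2 15.01-fold lower. Of the 10 genes, 10 passed the filter on low counts, 1 rose and 5 fell (edgeR quasi-likelihood test, Benjamini-Hochberg adjusted p under 0.05), and Notch4, Jag1, Dll4 and Hey1 did not pass. Over all 14887 tested genes, 59.2% passed, 30.9% higher and 28.4% lower in obese tumours, so the share of Notch genes that passed was near that of all genes. Of all calls 52.1% were higher in obese tumours, or 41.2% under upper quartile scaling and 42.3% under library size alone, which moved the median over all genes to −0.25 and −0.22. The median log2 change was −1.09 over the 10 genes and −0.04 over all tested genes. In bulk tumour RNA, fewer cells of a type and less RNA per cell cannot be told apart.

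The windows before the start sites of Notch2, Notch3 and Jag2 are shown because Notch2 was the gene that rose and Notch3 and Jag2 were the genes that fell most. Each holds the 250 bases before a RefSeq start site (GRCm38.p6), on the strand of the gene, and capitals mark the N-box (CACNAG, or CTNGTG on the other strand), a motif known to be bound by HES proteins. Notch2 lies on the plus strand (chr3:98013288-98013537), and Notch3 (chr17:32166891-32167140) and Jag2 (chr12:112929496-112929745) on the minus strand.
Notch2: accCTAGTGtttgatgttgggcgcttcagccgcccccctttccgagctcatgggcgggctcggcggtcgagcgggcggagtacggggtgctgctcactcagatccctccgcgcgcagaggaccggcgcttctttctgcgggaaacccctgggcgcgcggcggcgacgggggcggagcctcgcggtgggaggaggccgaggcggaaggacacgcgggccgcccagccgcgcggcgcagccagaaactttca
Notch3: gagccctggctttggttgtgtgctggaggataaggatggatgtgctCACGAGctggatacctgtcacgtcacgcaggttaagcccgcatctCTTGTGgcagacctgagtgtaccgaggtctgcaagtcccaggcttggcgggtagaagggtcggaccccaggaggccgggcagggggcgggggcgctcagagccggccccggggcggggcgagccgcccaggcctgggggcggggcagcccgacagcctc
Jag2: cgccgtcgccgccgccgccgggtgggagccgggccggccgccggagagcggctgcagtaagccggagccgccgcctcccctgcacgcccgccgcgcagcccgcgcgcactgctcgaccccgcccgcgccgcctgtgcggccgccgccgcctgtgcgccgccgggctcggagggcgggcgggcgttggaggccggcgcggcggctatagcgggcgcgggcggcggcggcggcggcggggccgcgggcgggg

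The Notch2 window holds 1 N-box, 247 bases before the start site, and the Notch3 window holds 2, at 204 and 159 bases. The Jag2 window holds none, and with 87.2% G or C and 54 CG dinucleotides it stands above 99.96% and 99.98% of all windows in those measures. By GENCODE M21 the Jag2 gene starts at 112929776 on the minus strand, so this whole window lies within the gene. RefSeq windows were found for 8 of the 10 genes (9 windows, as Dll1 has 2), and none was found for Hes1 and Hey1. An N-box was present in 4 of the 9 windows and in 36.7% of 32851 windows of the same length. The core motif of RBPJ (TGGGAA, or TTCCCA on the other strand) was in 0 of the 9 windows and in 21.6% of all windows. The E-box CACGTG, which reads the same on both strands, was in 0 of the 9 and in 6.02% of all windows. These matches describe letters in a window and say nothing of binding.

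Sequencing depth ran from 25.7 to 66.7 M counts per tumour, and levels are given as CPM, counts per 1 M counts with edgeR's TMM scaling. A count of 0 would allow a level of up to 3 counts, or 0.0494 to 0.124 CPM, for counting error only. Obese replicate 3 stood apart from the other obese tumours on the first principal component of the 1000 most variable genes (12.9, against −136 to −96.5 in the other obese tumours and 70.2 to 93.7 in the lean tumours), so results that rest on it are given with and without it. The mammary tumour label was checked against epithelial markers. Epcam, a surface protein of epithelium, stood at 0.495, 4.203, 175 and 5.52 CPM in obese replicates 1 to 4 and at 532, 233, 447 and 539 CPM in lean replicates 1 to 4. Values per tumour below follow the same order of replicates.

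Among the receptors, Notch1 (ENSMUSG00000026923, chromosome 2, 26457903 to 26516663) was measured at 92.6, 142, 80.1 and 94.5 CPM in obese and at 136, 279.8, 198 and 175 CPM in lean tumours. The groups met at their edges, as obese replicate 2 lay just above lean replicate 1. The means were 102 ± 27.2 (SD, n = 4) and 197 ± 60.7 CPM (n = 4), and Notch1 fell by 0.95 ± 0.26 (SE) on the log2 scale (edgeR adjusted p = 0.0150).

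Notch2 (ENSMUSG00000027878, chromosome 3, 98013527 to 98150361) showed the opposite order. It stood at 147, 289, 83.1 and 198 CPM in obese and at 60.9, 37.6, 45.7 and 54.6 CPM in lean tumours, so each obese tumour lay above each lean one. Obese replicate 3 was the lowest of its group. The means were 179 ± 86.8 and 49.7 ± 10.2 CPM (n = 4 each), a log2 change of 1.85 ± 0.36 (edgeR adjusted p = 0.00410).

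Notch3 (ENSMUSG00000038146, chromosome 17, 32120820 to 32166852) had values of 1.53, 2.75, 11.2 and 3.34 CPM in obese and of 36.4, 69.4, 86.6 and 69.6 CPM in lean tumours. The groups did not overlap, and obese replicate 3 was the highest obese tumour. The means were 4.71 ± 4.41 and 65.5 ± 21.002 CPM (n = 4 each), a log2 change of −3.79 ± 0.66 (edgeR adjusted p = 0.00263), or −4.66 ± 0.41 without obese replicate 3 (edgeR adjusted p = 9.0e-05). The antisense gene Gm17276 overlaps Notch3 and was listed at 0 CPM.

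Notch4 (ENSMUSG00000015468, chromosome 17, 34564268 to 34588503) did not pass. It stood at 24.9, 9.77, 16.6 and 10.0 CPM in obese and at 10.1, 14.6, 11.6 and 9.13 CPM in lean tumours, with obese replicates 1 and 3 above every lean tumour and the other two obese tumours within the lean range (log2 change 0.43 ± 0.34, edgeR adjusted p = 0.291).

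**Figure D1:**
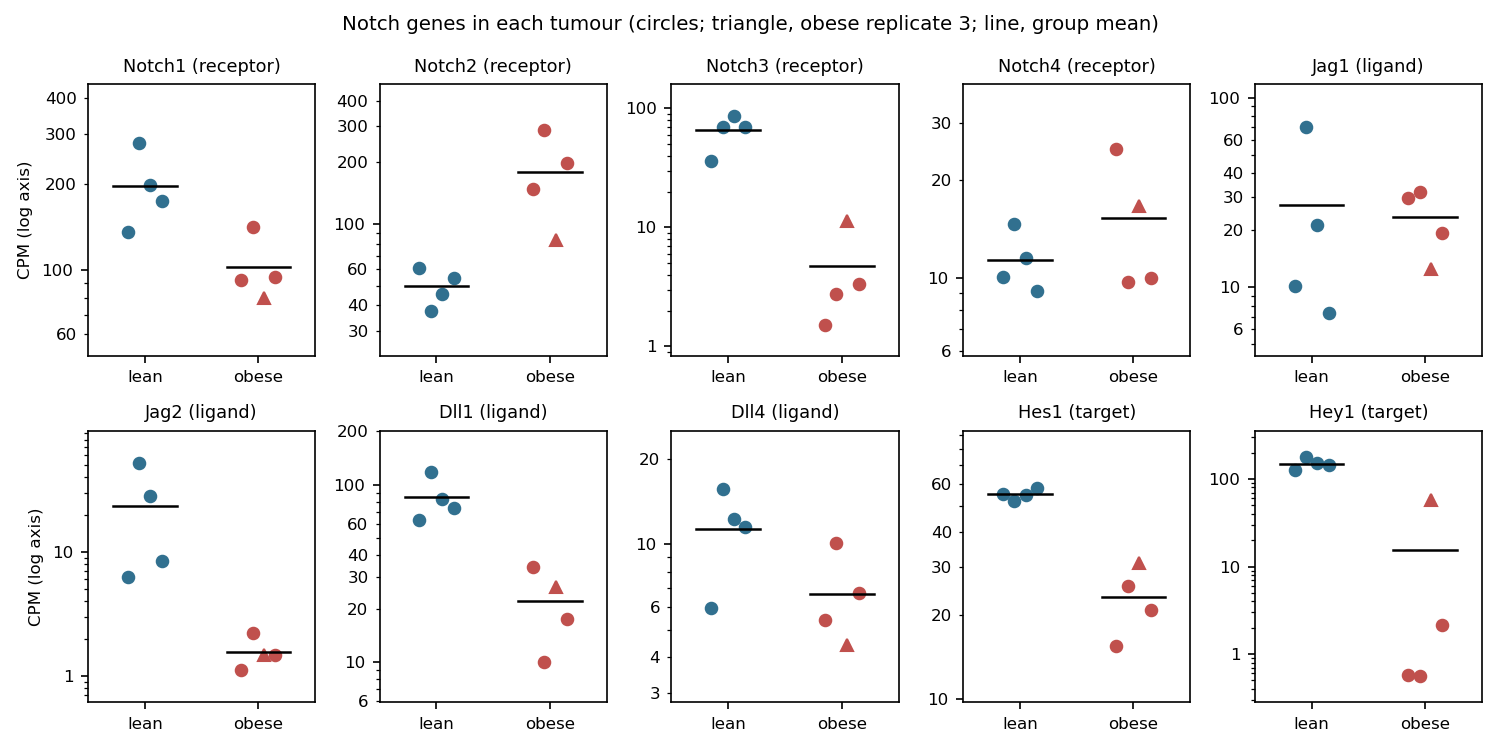
CPM on a log axis for each of the 10 Notch genes in 4 lean (blue) and 4 obese (red) tumours, with a line at each group mean and a triangle for obese replicate 3. Notch2 lies higher in every obese tumour, Notch3, Jag2, Dll1, Hes1 and Hey1 lie lower in every obese tumour, and Notch1, Notch4, Jag1 and Dll4 overlap between groups.

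Among the ligands, Jag2 (ENSMUSG00000002799, chromosome 12, 112907819 to 112929776), a Serrate-type ligand, stood at 1.11, 2.21, 1.49 and 1.49 CPM in obese and at 6.29, 51.8, 28.03 and 8.40 CPM in lean tumours. All obese values were below all lean values, and the lean tumours spread widely, with lean replicates 2 and 3 high. The means were 1.58 ± 0.458 and 23.6 ± 21.2 CPM (n = 4 each), a log2 change of −3.90 ± 0.72 (edgeR adjusted p = 0.00328), or −3.17 without lean replicate 2.

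Dll1 (ENSMUSG00000014773, chromosome 17, 15367354 to 15376872), a Delta-type ligand, stood at 34.2, 10.0, 26.5 and 17.5 CPM in obese and at 63.6, 118, 83.4 and 74.3 CPM in lean tumours. The groups did not overlap. The means were 22.1 ± 10.5 and 85.0 ± 23.8 CPM (n = 4 each), a log2 change of −1.95 ± 0.38 (edgeR adjusted p = 0.00419).

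The other two ligands did not pass. Jag1 (ENSMUSG00000027276, chromosome 2, 137081456 to 137116644) stood at 29.6, 31.9, 12.5 and 19.4 CPM in obese and at 10.1, 69.7, 21.3 and 7.30 CPM in lean tumours. Its obese values lay within the lean range, in which lean replicate 2 was highest, and its log2 change of −0.22 ± 0.70 (edgeR adjusted p = 0.801) turned to 0.85 without lean replicate 2. Jag1 and Jag2, both Serrate-type ligands, thus differed in whether they passed, although the difference between their changes was not tested.

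Dll4 (ENSMUSG00000027314, chromosome 2, 119325784 to 119335962), a ligand known from sprouting vessels, stood at 5.41, 10.1, 4.43 and 6.74 CPM in obese and at 5.94, 15.7, 12.2 and 11.5 CPM in lean tumours. Obese replicate 2 and lean replicate 1 made the groups overlap (log2 change −0.76 ± 0.37, edgeR adjusted p = 0.104). The change passed with upper quartile factors (−0.98, edgeR adjusted p = 0.0440) and without lean replicate 1 (−0.97, edgeR adjusted p = 0.0440).

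Of the targets, Hes1 (ENSMUSG00000022528, chromosome 16, 30064384 to 30067796), a basic helix-loop-helix repressor, stood at 15.5, 25.7, 30.9 and 20.97 CPM in obese and at 55.2, 52.1, 54.8 and 58.1 CPM in lean tumours. The lean values lay close together and above every obese value. The means were 23.3 ± 6.57 and 55.0 ± 2.43 CPM (n = 4 each), a log2 change of −1.24 ± 0.21 (edgeR adjusted p = 0.00211).

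Hey1 (ENSMUSG00000040289, chromosome 3, 8663359 to 8667256), a related repressor, stood at 0.578, 0.560, 57.8 and 2.14 CPM in obese and at 127, 177, 153 and 142 CPM in lean tumours. Every obese tumour lay below every lean tumour, but obese replicate 3 lay far above the rest of its group. The means were 15.3 ± 28.4 and 149.8 ± 20.8 CPM (n = 4 each). The log2 change of −3.29 ± 1.47 did not pass over the 8 tumours (edgeR adjusted p = 0.0840). Without obese replicate 3 it was −7.07 ± 0.57 and passed (edgeR adjusted p = 6.67e-05). Of the 10 Notch genes 6 then fell and 1 rose, while 64.8% of 15184 tested genes passed, 31.1% higher and 33.6% lower in obese tumours.

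**Figure D2:**
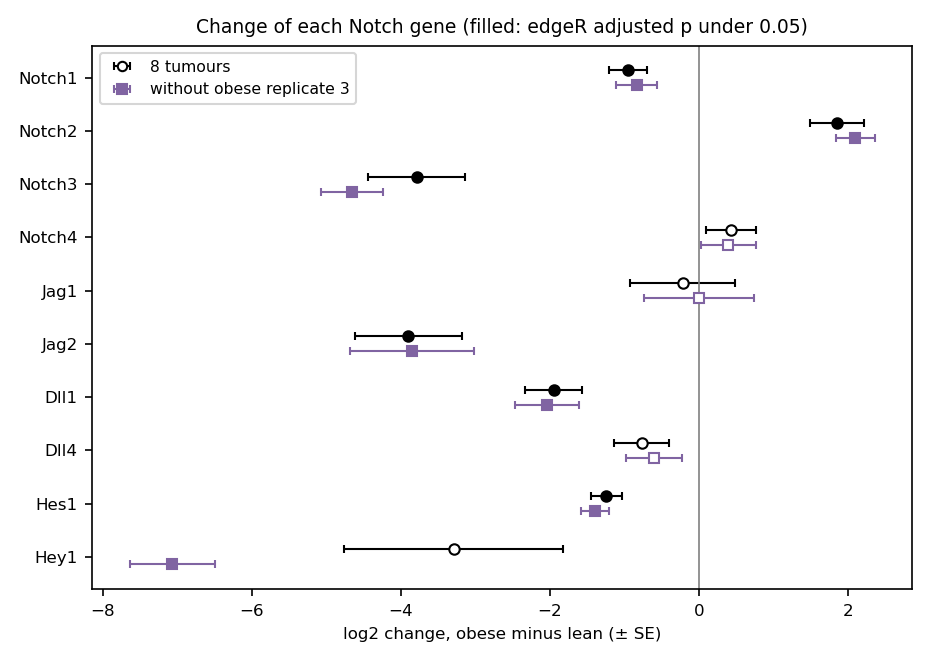
Log2 change (obese minus lean, ± SE) of the 10 Notch genes in all 8 tumours (black) and without obese replicate 3 (purple), filled where the edgeR adjusted p was under 0.05. Hey1 moves from −3.29 to −7.07 and becomes filled, Notch3 moves from −3.79 to −4.66, and each of the other genes keeps its side of the threshold.

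The values of 6 of the 10 genes did not overlap between the groups (Notch2 above, Notch3, Jag2, Dll1, Hes1 and Hey1 below), against 57.0% of all tested genes (28.9% with the obese tumours above and 28.1% below). The 6 genes that passed over all 8 tumours also did so, in the same direction, in each of the 17 other settings and left-out tumours. The adjusted p of Notch1 reached 0.0443 in that range, and those of the other 5 stayed at or below 0.0156.

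Levels can be compared between genes per length, as CPM per kb of merged exons. In lean tumours the order of these levels was Hey1 (45.9 ± 6.38 CPM per kb), Hes1 (27.0 ± 1.19), Dll1 (20.1 ± 5.64), Notch1 (13.9 ± 4.26), Notch3 (8.10 ± 2.60), Jag1 (4.65 ± 4.98), Notch2 (4.61 ± 0.945), Jag2 (3.39 ± 3.04), Dll4 (2.94 ± 1.04) and Notch4 (1.41 ± 0.299). Of neighbours in that order, only Hey1 and Hes1 had values that did not overlap. In obese tumours the order was Notch2 (16.6 ± 8.05), Hes1 (11.4 ± 3.23), Notch1 (7.19 ± 1.91), Dll1 (5.23 ± 2.49), Hey1 (4.68 ± 8.69), Jag1 (4.01 ± 1.55), Notch4 (1.90 ± 0.884), Dll4 (1.73 ± 0.641), Notch3 (0.583 ± 0.546) and Jag2 (0.226 ± 0.0657), and the values of all neighbours overlapped. By group means, Notch2 thus led the order in obese tumours and Hey1 in lean tumours. In obese replicate 3, however, Hey1 (17.7 CPM per kb) and Hes1 (15.2) stood above Notch2 (7.71).

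The make-up of the receptor mRNA, as each receptor's share of the summed CPM per kb of the 4 receptors, differed between the groups while the sum did not separate them. The sum was 16.8 to 38.3 CPM per kb in obese and 20.96 to 33.5 in lean tumours. Notch2 made up 58.3, 69.9, 45.9 and 68.9% in obese and 27.0, 10.4, 13.98 and 18.7% in lean tumours. Notch1 made up 24.9 to 33.5% in obese and 45.4 to 58.6% in lean tumours. Notch3 held 0.805 to 8.27% in obese and 21.5 to 35.3% in lean tumours, and Notch4 3.16 to 13.2% and 4.17 to 5.97%. By merged exons, Notch2 was the largest share in each obese tumour and Notch1 in each lean tumour. By the longest transcript this order turned in obese replicate 3, where Notch1 made up 41.6% and Notch2 39.03%. These shares are computed from the levels above and were not tested.

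For the ligands, the sum was lower in every obese tumour (9.44 to 14.7 CPM per kb) than in every lean one (19.3 to 51.6). Dll1 was the largest share in each lean tumour (54.5 to 78.3%) and ranged from 22.0 to 64.1% in obese tumours, in which Jag1 made up 22.0 to 50.8%. Jag1 was the largest ligand share in obese replicate 2 alone. Jag2 held 1.09 to 2.94% in obese and 4.69 to 14.4% in lean tumours.

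**Figure D3:**
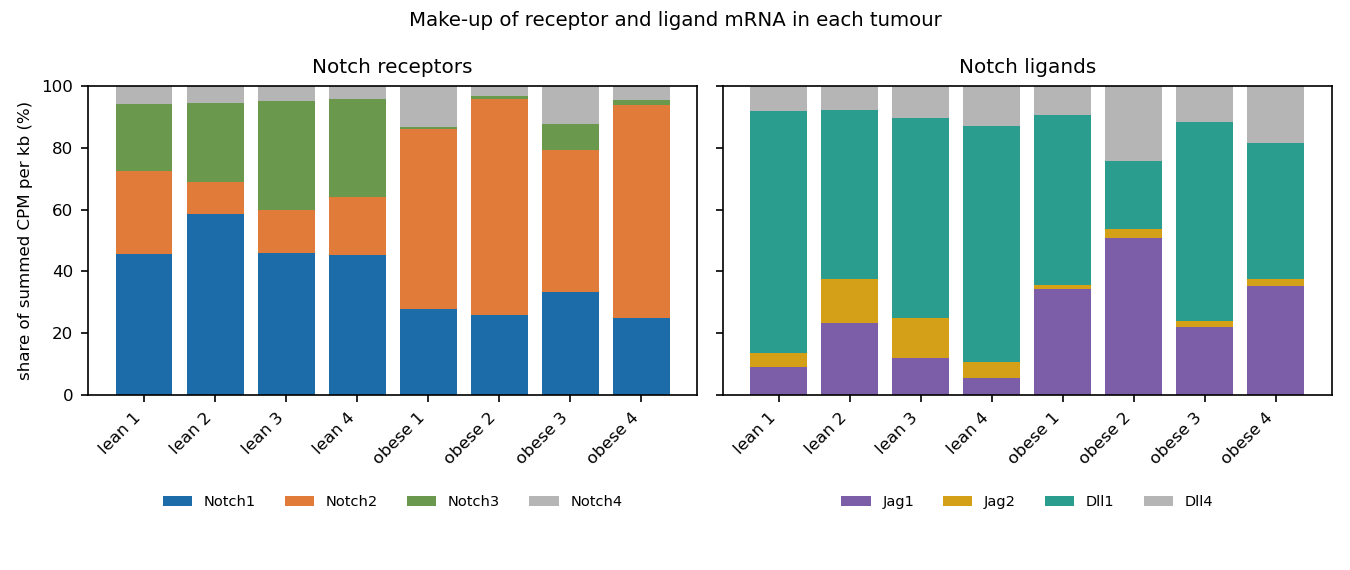
Share of each receptor (left) and ligand (right) in the summed CPM per kb of its class, as stacked bars for each tumour. Notch2 takes 45.9 to 69.9% of receptor mRNA in obese tumours against 10.4 to 27.0% in lean tumours, and Dll1 is the largest ligand share in each lean tumour.

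Other genes of the pathway were read by role, from lists chosen with earlier results of these data known. Of 51 such genes, 42 were tested, 14 rose and 12 fell, and their median log2 change was −0.05 (16 rose and 15 fell of 45 without obese replicate 3). The balance turned with scaling, to 10 that rose and 18 that fell with upper quartile factors and to 10 and 17 by library size alone. With TMM scaling, 30.9% of all tested genes rose and 28.4% fell, near the shares of these 42 genes. The same shares are the background for each list below, and lists of so few genes were not tested as sets. The genes with the largest share of rises were those of the nuclear complex. Of its 9 tested genes 6 rose and 0 fell (7 and 0 without obese replicate 3, 5 and 1 under either of those scalings), and the median was 0.80. Rbpj, the DNA-binding subunit, stood at 78.7, 105, 60.8 and 83.4 CPM in obese and at 32.4, 53.7, 33.6 and 27.7 CPM in lean tumours (1.15 ± 0.25, edgeR adjusted p = 0.00575). Each obese tumour thus lay above each lean one for Rbpj, while Hes1 lay below in each. Maml1, a Mastermind co-activator, rose by 1.02 ± 0.22 and Snw1, a transcription and splicing cofactor also called SKIP, by 0.68 ± 0.16 on the log2 scale. The call of Snw1 ended with offsets for GC content and exon length (0.28, edgeR adjusted p = 0.136).

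The genes for processing of the receptor went both ways. Of 9 tested processing genes 2 rose and 2 fell (median −0.14), or 1 and 4 with upper quartile factors. Adam17, a sheddase, rose from 110.5 ± 1.88 to 207 ± 44.0 CPM (0.90 ± 0.16, edgeR adjusted p = 0.00271). Adam10, another ADAM protease of the list, did not pass (−0.08 ± 0.19, edgeR adjusted p = 0.736) and was named after its values were seen. Psen2, a catalytic subunit of gamma-secretase, fell from 32.2 ± 4.34 to 17.5 ± 1.97 CPM (−0.88 ± 0.15, edgeR adjusted p = 0.00256). Aph1b, another gamma-secretase subunit, also fell and was named after its values were seen (−1.05 ± 0.34, edgeR adjusted p = 0.0275). Leaving out obese replicate 4 or lean replicate 2 ended the Aph1b call (edgeR adjusted p = 0.0732 and 0.0612).

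The genes for sugar modification of the receptor's EGF repeats included the Fringe family, whose 3 members fell. Of 5 genes 3 fell and 1 rose (median −0.78). The Fringe glycosyltransferases Rfng (20.7 ± 3.95 against 61.4 ± 10.7 CPM, −1.57 ± 0.19, edgeR adjusted p = 0.000561) and Mfng (5.66 ± 2.84 against 14.8 ± 2.69 CPM, −1.39 ± 0.37) fell. Lfng, which completes that family, was the remaining gene that fell and was named after its values were seen (−0.78 ± 0.21). Its call ended with offsets for GC content and exon length (−0.30, edgeR adjusted p = 0.140). Pofut1, which adds O-fucose, rose from 46.7 ± 2.94 to 69.1 ± 4.92 CPM (0.57 ± 0.10, edgeR adjusted p = 0.00308).

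Ligand endocytosis, which is needed to pull on the receptor, is served by ubiquitin ligases, of which 1 rose and 1 fell among 4 (1 and 3 without lean replicate 2, 0 and 2 with upper quartile factors). Neurl1b fell from 5.95 ± 0.595 to 1.497 ± 0.650 CPM (−1.98 ± 0.38, edgeR adjusted p = 0.00393). Mib1 rose by 0.60 ± 0.20 (edgeR adjusted p = 0.0307), a call that ended in 10 of 17 alternatives. Of 6 other ligands and antagonists 1 was tested, Egfl7, a secreted protein of endothelium, and it fell (−0.63 ± 0.16, edgeR adjusted p = 0.0108), a call that ended with offsets for GC content and exon length (−0.32, edgeR adjusted p = 0.115).

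Among 9 genes of receptor turnover 3 rose and 1 fell (median 0.24), against 2 and 3 with upper quartile factors and 3 and 3 with DESeq2 size factors. Numbl, an endocytic adaptor related to Numb, rose from 13.4 ± 2.09 to 38.8 ± 14.1 CPM (1.53 ± 0.28, edgeR adjusted p = 0.00307) and the ubiquitin ligase gene Itch from 72.5 ± 11.6 to 109 ± 14.2 CPM (0.59 ± 0.15). Dtx1, a Deltex ubiquitin ligase, was the gene that fell. It had 6, 2, 5 and 1 counts in obese tumours and 94, 101, 158 and 131 counts in lean tumours (edgeR adjusted p = 0.00129), and the size of its change depends on how such low counts are treated.

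Of 9 other HES, HEY and target genes 5 were tested, 4 of which fell and 1 rose. Hes6, which antagonises Hes1 in other tissues, stood at 2.27, 1.96, 11.1 and 2.35 CPM in obese and at 34.2, 23.5, 38.5 and 41.7 CPM in lean tumours (−2.96 ± 0.62, edgeR adjusted p = 0.00555). Its change was −3.96 without obese replicate 3, the highest obese tumour. Hey2, a close relative of Hey1, had 1, 2, 14 and 1 counts in obese and 27, 88, 76 and 40 counts in lean tumours (edgeR adjusted p = 0.00754). Hes7, known from the segmentation clock of the embryo, rose from 0.414 ± 0.314 to 3.55 ± 0.535 CPM (3.10 ± 0.63, edgeR adjusted p = 0.00466), or by 3.70 without lean replicate 1. Heyl and Nrarp, the other genes that fell, were named after their values were seen, and lean replicate 2 was highest for both. Heyl stood at 3.27, 14.03, 4.66 and 2.13 CPM in lean tumours, and its change of −2.63 was −1.79 without that tumour (edgeR adjusted p = 0.0114). Nrarp stood at 9.65, 74.2, 28.3 and 10.6 CPM in lean tumours. Its change of −1.999 was −1.08 without lean replicate 2 and no longer passed (edgeR adjusted p = 0.0536), and the call ended in 8 of 17 alternatives.

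**Figure D4:**
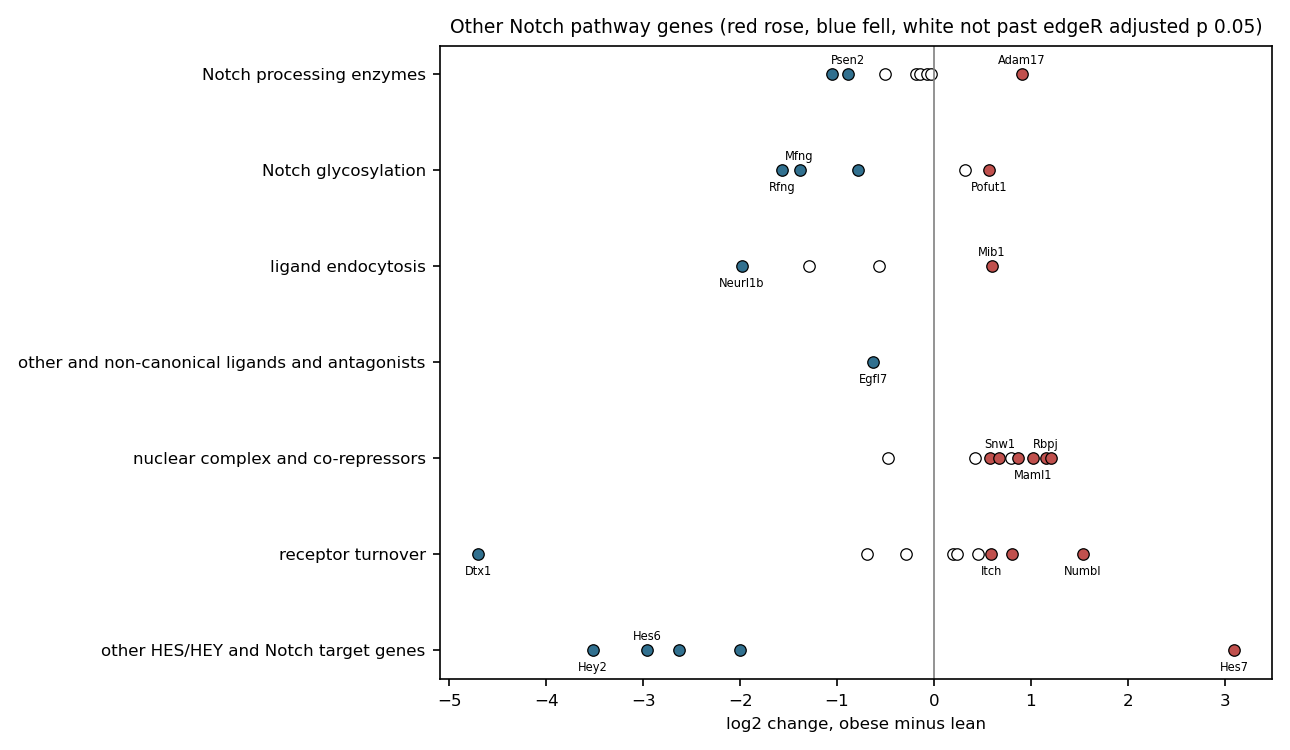
Log2 change (obese minus lean) of tested genes of the Notch pathway grouped by role, with genes that rose in red, those that fell in blue and the others in white. In the nuclear complex 6 of 9 genes rose and 0 fell, and among the other HES, HEY and target genes 4 of 5 fell. Over all tested genes 30.9% rose and 28.4% fell. The positions of Dtx1 and Hey2 depend on how their low counts are treated.

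Markers of other cell types moved between the same tumours, and their part in these differences was not tested. Counts of markers that rose or fell stand beside 30.9% that rose and 28.4% that fell over all tested genes. The summed CPM of 10 endothelial markers was 195 to 217 in obese and 182 to 400.2 in lean tumours. Of these 10 markers 4 fell and 0 rose (1 and 0 without lean replicate 2, 6 and 0 with upper quartile factors), and none was at 0 in all tumours. The most abundant were Pecam1 (60.4 ± 15.6 against 71.5 ± 17.4 CPM) and Cdh5 (39.04 ± 8.27 against 48.5 ± 20.2 CPM), neither of which passed (edgeR adjusted p = 0.379 and 0.381). For Dll4, known from endothelium, the high lean replicate 2 was also the highest tumour in the endothelial sum. The lowest tumour was obese replicate 3 for Dll4 (4.43 CPM) and lean replicate 1 for the sum (182 CPM).

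For Notch3 the 8 mural cell markers, summed, stood at 159 to 258 CPM in obese and 159 to 2639 CPM in lean tumours. Of these 5 fell and 1 rose, but 1 fell and 1 rose without lean replicate 2. The most abundant were Acta2, the smooth muscle actin gene (61.2 ± 28.3 against 782 ± 1062 CPM), and Pdgfrb, a receptor kinase (138 ± 36.6 against 39.6 ± 18.5 CPM). These went in opposite directions (log2 changes −3.68 ± 1.15 and 1.802 ± 0.35, edgeR adjusted p = 0.0258 and 0.00380), and without lean replicate 2 the change of Acta2 was −2.11 and did not pass (edgeR adjusted p = 0.0658). Pdgfrb was the only marker of the list that rose. The others that fell, named after their values were seen, were Rgs5 (−2.23), Kcnj8 (−2.47), Abcc9 (−1.77) and Myh11 (−4.79). Lean replicate 2 was the highest tumour for each, and only Kcnj8 did not overlap between the groups. The order of the tumours differed between Notch3 and the mural sum. Lean replicate 1 was lowest of the lean tumours in both, but obese replicate 3 had the lowest mural sum of the obese tumours (159 CPM) and their highest Notch3 level (11.2 CPM). Lean replicate 2 had a mural sum of 2639 CPM against 693 CPM in lean replicate 3, and less Notch3 (69.4 against 86.6 CPM). The sum rested mostly on Acta2 in lean replicate 2 (2335 CPM) and on Pdgfrb in obese replicate 3 (87.5 CPM). Single markers ordered the tumours differently, and what these orders mean for Notch3 was not tested.

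The epithelial markers separated the groups. Those of 7 luminal genes summed to 66.2 to 702 CPM in obese and 1108 to 2332 CPM in lean tumours (4 fell and 0 rose, or 7 and 0 without obese replicate 3). Those of 4 basal genes summed to 0.124 to 29.6 and 113 to 1140 CPM (4 fell and 0 rose, or 3 and 0 without lean replicate 2). The call of the basal gene Trp63 ended in 8 of 17 alternatives. Not all Notch genes were high in obese replicate 3. It had the lowest obese levels of Notch1 (80.1 CPM), Notch2 (83.1 CPM), Jag1 (12.5 CPM) and Dll4 (4.43 CPM). Dll1 and Notch4 were highest in obese replicate 1, and Jag2 in obese replicate 2. Hey1, Hes1 and Notch3 had their highest obese levels in replicate 3, where Epcam was also the highest of its group. Krt8, the other of the most abundant luminal markers, was highest in obese replicate 2, at 267 CPM against 222 CPM in replicate 3. The remaining luminal markers were named after their values were seen. Cdh1 (165 CPM), Krt18 (128 CPM), Elf3 (10.1 CPM) and Cldn4 (1.68 CPM) were, as Epcam was, highest of the obese tumours in replicate 3. Krt19 was highest in obese replicate 1 (0.413 CPM). The basal genes Krt5 and Trp63 stood at 4.80 and 18.8 CPM in obese replicate 3. Krt5 and Krt14 were at 0 in obese replicate 1.

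**Figure D5:**
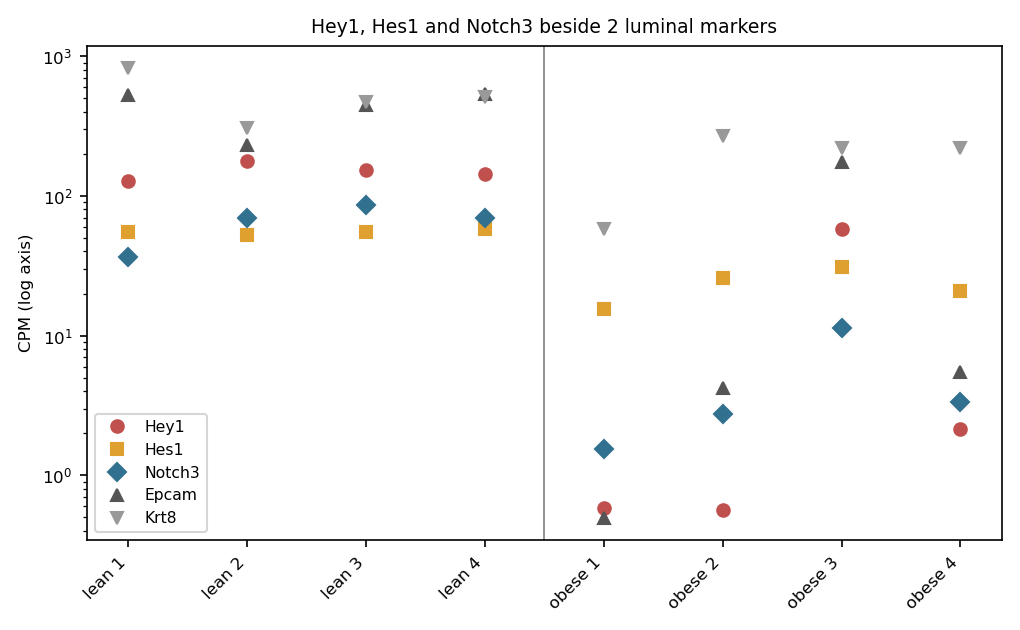
CPM on a log axis of Hey1, Hes1 and Notch3 and of Epcam and Krt8, the most abundant of the 7 luminal markers, in each lean and obese tumour. In obese replicate 3 the Notch genes shown and Epcam are each the highest of the obese tumours (Hey1 57.8, Hes1 30.9, Notch3 11.2 and Epcam 175 CPM), and Krt8 is not. Notch1, Notch2, Jag1 and Dll4, which are not shown, are lowest of the obese tumours there.

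The remaining marker lists went different ways. Summed over 8 macrophage markers the level was 1603 to 2162 CPM in obese and 1241 to 3356 CPM in lean tumours (3 rose and 1 fell, or 3 and 5 without lean replicate 2). The most abundant, C1qa (296 ± 76.4 against 499 ± 215 CPM) and Lyz2 (526 ± 139 against 805 ± 295 CPM), did not pass (edgeR adjusted p = 0.107 and 0.1098). The 3 that rose, named after their values were seen, were Mrc1 (122 ± 69.5 against 16.1 ± 5.80 CPM), Cd68 (176 ± 27.0 against 66.5 ± 19.9 CPM) and Adgre1 (141 ± 29.003 against 60.7 ± 12.4 CPM). In each of them the obese tumours lay above the lean ones. Csf1r was the marker that fell (log2 change −0.54, at an adjusted p of 0.0428 in the edgeR test), with overlapping groups. Its call was lost once obese replicate 3 was dropped. C1qb and C1qc were lower in obese tumours (−0.58 and −0.74) but did not pass. Csf1r, C1qb and C1qc were likewise named after their values were seen. The median log2 change of the 8 markers was −0.56. The 7 lymphocyte markers stood at 6.02 to 30.9 CPM in obese and 68.8 to 134 CPM in lean tumours (6 fell, 0 rose), led by Cd8a (7.21 ± 5.45 against 37.1 ± 14.4 CPM) and Cd3d (5.11 ± 3.36 against 25.9 ± 10.7 CPM). The 7 fibroblast markers stood at 1040 to 4980.3 CPM and 863 to 1196 CPM (2 rose, 3 fell), with Col3a1 higher (1837 ± 1227 against 552 ± 87.1 CPM) and Col1a1 not past the threshold (379 ± 387 against 259.5 ± 52.0 CPM). The other called markers were named after their values were seen. Pdgfra rose (log2 change 1.44, edgeR adjusted p = 0.0117). Dcn, Lum and Pi16 fell (−1.72, −1.32 and −1.31, edgeR adjusted p = 0.0127, 0.0137 and 0.0469), each with every obese tumour below every lean one. Of 5 adipocyte and 4 skeletal muscle markers 0 passed (2 muscle markers fell without lean replicate 2, and 2 without obese replicate 3). Fabp4 (101 ± 122 against 143 ± 82.7 CPM), Adipoq (14.2 ± 23.6 against 29.1 ± 19.8 CPM), Acta1 (32.4 ± 33.5 against 228 ± 236 CPM) and Ckm (7.92 ± 11.7 against 112 ± 121 CPM) were their most abundant genes.

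The genes whose pattern was most like those of Hes1, Notch3 and Jag2, the 3 members with the smallest p, were sought among 12342 genes by Pearson correlation of log2 CPM across the 8 tumours. This is a description across tumours that fall into 2 groups and share their libraries. High r, also within groups, follows in part from picking the highest among so many genes. For Hes1 the most alike genes were Cnnm4 (r = 0.999), Ctnnbip1 (0.996) and Anpep (0.995), and r was 0.995, 0.971 and 0.972 after the group means had been removed. For Notch3 they were Ctsf (0.997), Cxxc5 (0.996) and Nrbp2 (0.996), and the values within groups were 0.985, 0.974 and 0.989. For Jag2 they were Rgs12 (0.990), Hdgfl3 (0.987) and Dpysl3 (0.983), with 0.955, 0.940 and 0.935 within groups.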

How the data were processed

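RNA of 8 tumours was sequenced from stranded TruSeq libraries, per the labels' protocols. The authors deposited raw counts of reads per Ensembl gene, 1 column per tumour, not normalized. Per the submitters' processing notes, which list the build mm10, STAR 2.5.2b and HTSeq were used beside cutadapt 1.12, bcl2fastq 2.18.0.12 and CASAVA 1.8. The annotation, the strand setting and the filters are not given in the sources used here, so reads of a gene and of an antisense gene cannot be told apart. Symbols, coordinates and exon lengths came from GENCODE M21, where 49412 of 50143 IDs had a symbol.

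Genes were filtered with filterByExpr (minimum count 10, minimum total 15), scaled by TMM and tested with edgeR 4.0.16 (R 4.3.3; quasi-likelihood F test, robust, two-sided, Benjamini-Hochberg over all tested genes, threshold 0.05). Log2 changes are obese minus lean. Alternatives used DESeq2 1.42.0, limma 3.58.1, other factors, filters and offsets, and left out each tumour. On simulated data, the steps called 7 of 107 genes with a 2-fold change, 49 of 93 with a 4-fold change and 5 of 14582 unchanged genes. A gene that did not pass may thus still differ. Far fewer genes changed in the simulation than passed here, so these shares cannot be carried over to the data. Members, lists and tests were chosen with earlier results of these data known. Named genes are the 10 members, up to 3 genes with the smallest p in each pathway list (or the most abundant where none passed), the 2 most abundant markers of each list, and the 3 genes most correlated with each of 3 members. Replicate numbers only name tumours. Promoter windows are RefSeq's, and those printed were chosen after the values were seen. The values of 1 pathway gene are not reported here, although it is in the counts.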

Additional observations from a re-analysis of the deposited data

Results flagged for a closer look

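In 7 of 82 sets of 4 tumours checked, the highest or lowest tumour stood apart from the others by a gap above Dixon's critical value for its share of the group's range, which about 1 in 20 sets pass by chance. Hey1 in obese tumours had a gap of 0.972 of the range, with obese replicate 3 at 57.8 CPM against at most 2.14 CPM in the rest. The same tumour was highest for Hes6 (0.957, at 11.1 CPM), Hey2 (0.930, at 0.271 CPM) and Psen2 (0.887, at 20.4 CPM). In lean tumours Snw1 was high in replicate 1 (0.842, at 173 CPM) and Itch in replicate 2 (0.868, at 89.7 CPM). The summed adipocyte markers were high in obese replicate 4 (0.8301 of the range, at 399 CPM).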

How the results depend on the processing

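No paired analysis was possible because the labels give tumours no shared number, and the replicate numbers here only name them. Over 17 alternatives, Notch1, Notch2, Notch3, Jag2, Dll1 and Hes1 kept direction and call, and Notch4 never passed. Hey1 passed with limma-voom (−5.74), limma-voom with quality weights (−6.25) and the DESeq2 Wald test (−3.41), and leaving out 1 tumour moved it from −7.07 (without obese replicate 3) to −2.87. Dll4 passed with upper quartile factors (−0.98) and with limma-voom and quality weights (−0.70), and ran from −1.03 to −0.57 on leaving out 1 tumour. Jag1, never called, turned to 0.22 with limma-voom and 0.50 with quality weights, and ran from −0.53 to 0.85 on leaving out 1 tumour (0.003 without obese replicate 3). The cause of these shifts was not tested.

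The number of pathway genes that fell was 12, or 19 with limma-voom and quality weights, where 17 rose. The genes called over the whole table were 4598 higher and 4221 lower in obese tumours, against 3612 and 5145 under upper quartile scaling. Without obese replicate 1 the change of Dtx1 was −5.47, and without obese replicate 3 that of Hey2 was −5.03. With the longest transcript as length, Notch1 made up 35.7 ± 4.07% of receptor mRNA in obese and 58.0 ± 6.10% in lean tumours, and Notch2 53.3 ± 10.8% and 14.3 ± 6.00%, with Notch1 the larger in obese replicate 3. The Notch1 level was then 10.8 CPM per kb in obese and 20.8 in lean tumours, and in obese tumours Hey1 (6.30) stood above Dll1 (6.16). Depth limits Dtx1 and Hey2, which had 1 to 14 counts in obese tumours.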
